A study of Mus musculus with 12 samples.

Results

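Keratins are the intermediate filament proteins of epithelial cells. The keratin gene family was examined in cavin-1 KO and WT mouse lungs shortly after birth, and its members were all probes whose annotated gene symbol begins with Krt followed by a digit. This rule uses the name alone and no measured value. It gave 66 of 45281 probes, which belong to 49 of 19057 genes with a probe of their own. Lung RNA of 6 KO mice and 6 WT mice was hybridized, 1 mouse to an array, to the Illumina MouseWG-6 v2.0, a bead array with short probes for each transcript. The KO mice lack cavin-1, a coat protein of the membrane pits called caveolae, in all tissues, since the knockout is constitutive. The WT mice were littermate controls according to the methods, and the labels name no treatment. Source strain was C57/bl6 for both groups, and age was newborn, up to 6 h by the labels, whereas the methods give a longer window.

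A keratin filament is built from pairs of a type I and a type II keratin. In the mouse the type I genes lie on chromosome 11, except *Krt18*, and the type II genes lie on chromosome 15. Single-layered epithelia such as those of airways and alveoli use the simple keratins *Krt8*, *Krt18*, *Krt7* and *Krt19*. Layered squamous epithelia use *Krt5* and *Krt14* in their basal cells, *Krt1* and *Krt10* in skin above the basal layer, and *Krt4* and *Krt13* in mucosa such as that of the oesophagus. *Krt5* and *Krt14* also mark the basal cells of large airways, and *Krt4* and *Krt13* mark small patches of squamous cells, called hillocks, in the mouse trachea. *Krt6a*, *Krt6b*, *Krt16* and *Krt17* are induced by injury in skin, and a large further group serves hair follicle and nail.

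The promoters of 4 keratins are shown because their transcripts carry the results on the simple and the mucosal type. RefSeq start sites on the mouse build GRCm38.p6 were available for 34 of the 49 genes, as windows of 300 bases that run from upstream of the start to just after it. The letters in capitals mark matches on either strand to TATAAA (the TATA box), GGGCGG (the GC box), TGANTCA (the AP-1 site) or GCCNNNGGC (the AP-2 site). Matches to different motifs or to the opposite strands can overlap. The windows are given from 5′ to 3′ on the gene's own strand. They are *Krt8* at chr15:102004293-102004592 (minus strand), *Krt18* at chr15:102027966-102028265 (plus strand), *Krt7* at chr15:101412153-101412452 (plus strand) and *Krt13* at chr11:100121517-100121816 (minus strand, the most upstream of 2 starts).
Krt8: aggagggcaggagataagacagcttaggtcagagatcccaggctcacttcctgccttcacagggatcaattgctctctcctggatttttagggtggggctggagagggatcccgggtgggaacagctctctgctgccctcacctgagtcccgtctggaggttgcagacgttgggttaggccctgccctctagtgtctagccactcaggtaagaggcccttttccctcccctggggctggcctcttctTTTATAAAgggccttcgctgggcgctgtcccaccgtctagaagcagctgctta
Krt18: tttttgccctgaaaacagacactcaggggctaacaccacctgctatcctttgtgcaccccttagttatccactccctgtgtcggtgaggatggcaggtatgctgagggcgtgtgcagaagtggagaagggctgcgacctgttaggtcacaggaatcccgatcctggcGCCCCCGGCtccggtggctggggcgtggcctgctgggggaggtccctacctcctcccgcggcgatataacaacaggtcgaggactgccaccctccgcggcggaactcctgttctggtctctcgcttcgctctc
Krt7: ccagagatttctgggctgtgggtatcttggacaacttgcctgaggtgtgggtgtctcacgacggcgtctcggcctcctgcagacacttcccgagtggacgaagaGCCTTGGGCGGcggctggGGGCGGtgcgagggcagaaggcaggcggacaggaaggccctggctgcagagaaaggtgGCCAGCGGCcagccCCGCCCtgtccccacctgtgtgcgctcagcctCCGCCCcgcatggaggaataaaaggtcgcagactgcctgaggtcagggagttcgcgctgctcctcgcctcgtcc
Krt13: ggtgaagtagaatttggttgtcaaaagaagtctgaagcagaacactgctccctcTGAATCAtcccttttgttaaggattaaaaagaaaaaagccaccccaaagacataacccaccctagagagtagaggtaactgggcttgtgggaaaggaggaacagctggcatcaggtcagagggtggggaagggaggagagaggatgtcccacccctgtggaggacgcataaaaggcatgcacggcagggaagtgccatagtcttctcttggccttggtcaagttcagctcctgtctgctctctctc
In the *Krt8* window, TATAAA matched on both strands, at overlapping positions. Of the 34 keratin genes, 18 held TATAAA, against 13.62% of all 32817 windows in the table. GGGCGG was found in 2 of 34 against 35.63% of all windows, and *Krt7* held 4 copies of it. GCCNNNGGC was found in 7 of 34 against 16.58%, and TGANTCA in 1 of 34, *Krt13*, against 7.813%. A match is a description of the letters in this window.

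*Cavin1*, the deleted gene, served as a check of the labels. On its probe ILMN_2498471 the log2 signal lay between 11.57 and 11.79 in the 6 WT lungs and between 3.60 and 5.37 in 5 libraries labelled KO. The library labelled KO 157 gave 11.66, within the WT range, and its title and its description carry different mouse numbers. The differences of keratin probes detected in a whole group, that of *Krt5* and the counts of keratin probes by p-value are therefore given with and without it. Other keratin values are given over all 12 lungs unless stated, and so are gene lists, with their calls without it. Between 45.3% and 49.1% of all probes were detected per array, where detected means a detection p under 0.05 in the deposited table. The lung label was checked with alveolar and club cell markers, and 8 of 8 type 1, 8 of 8 type 2 and 5 of 5 club cell genes were detected in all 12 lungs. Since the tissue is bulk RNA, fewer cells of a type and less RNA per cell cannot be told apart. P-values of KO against WT set a difference against the spread between arrays, 1 mouse to each. Mouse, array and litter are not separated in that spread.

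Simple keratins were detected throughout, whereas most squamous keratins were detected in some lungs only and most hair keratins in none. Between 17 and 26 of the 66 keratin probes were detected per lung, with the fewest in WT 179 and the most in WT 182. In all, 11 of 49 genes were detected in all 12 lungs, 18 in 1 to 11 lungs and 20 in none. A probe at background passes this limit in about 5% of lungs, so that detection in 1 or 2 lungs is close to what background gives. Of the 5 simple epithelial genes, *Krt7*, *Krt8*, *Krt18* and *Krt19* were detected in all 12 lungs. *Krt20*, the keratin of intestine and urothelium, was detected in 1 KO lung and 3 WT lungs.

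Among the squamous types the detection was uneven. The basal keratins *Krt14* and *Krt15* were detected in all 12 lungs, whereas *Krt5*, the filament partner of *Krt14*, was detected in 4 KO lungs, the library labelled KO 157 among them, and in 0 WT lungs. Of 5 cornifying genes, *Krt10* was detected in all 12 lungs, its partner *Krt1* in 4, and *Krt2*, *Krt9* and *Krt77* in none. Of 5 mucosal genes none was detected in all 12 lungs, yet *Krt4* and *Krt13* were each detected in 11, all but WT 179. *Krt78* was detected in 6 lungs, *Krt76* in 3 and *Krt12*, the keratin of the cornea, in none. Of the 4 stress-induced genes, *Krt17* was detected in all 12 lungs, *Krt6b* in 7, *Krt6a* in 5 and *Krt16* in 1. *Krt6a* and *Krt6b* are near-identical copies, so that their probes may not tell them apart.

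Hair keratins were mostly at background. Of 8 genes of the inner root sheath and companion layer, *Krt25*, *Krt26*, *Krt27*, *Krt28*, *Krt71* and *Krt72* were detected in no lung and *Krt73* in 1, whereas *Krt75*, which belongs to the companion layer of the follicle, was detected in all 12 lungs by 1 of its 3 probes. Of 11 hair shaft genes, 8 were detected in no lung, and *Krt33a*, *Krt82* and *Krt86* were detected in 7, 4 and 1. Among 8 remaining genes, *Krt23* and *Krt80* were detected in all 12 lungs, *Krt79* in 9, *Krt90* in 5 and *Krt42* and *Krt222* in 2 each, and *Krt24* and *Krt88* in none.

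**Figure D1:**
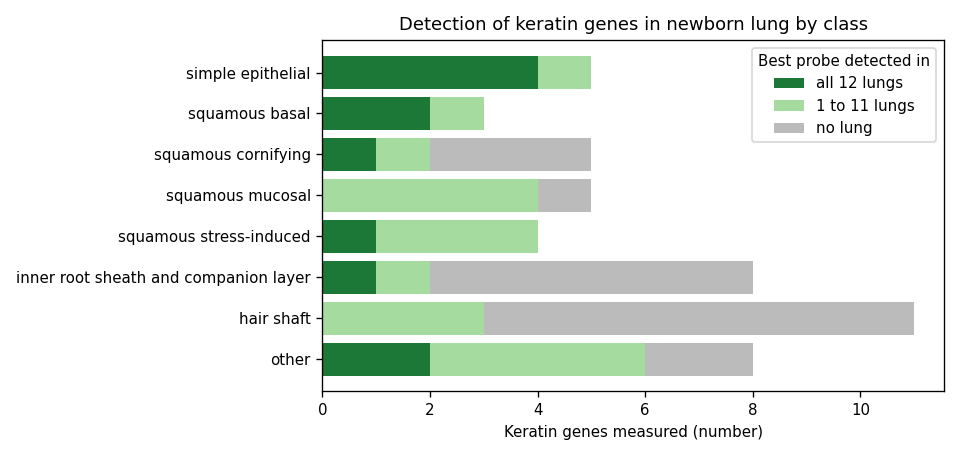
Keratin genes measured in each class (horizontal axis, number of genes), divided by the number of lungs in which the gene's most often detected probe had a detection p under 0.05. Of the 5 simple epithelial genes, 4 were detected in all 12 lungs, and of the 11 hair shaft genes, 0 were.

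KO and WT lungs were then compared. No keratin probe passed the threshold of an adjusted p under 0.05 in limma, 0 of 66, whereas 0.148% of all probes did (0.0663% higher and 0.0817% lower in KO). An unadjusted p under 0.05 was found for 5 of 66, *Krt5*, *Krt7*, *Krt14*, *Krt35* and *Krt84*, against 13.4% of all probes. The KO and WT ranges overlapped for every keratin probe, against 1.44% of all probes without overlap. With the probes of a gene merged by their median, 0 of 49 genes passed against 0.199% of all genes (0.0945% higher and 0.105% lower in KO), and 5 of 49 had an unadjusted p under 0.05 against 13.7%. Of the 66 probes, 36 had a positive and 30 a negative log2 fold change, with a median of 0.05 against −0.00139 over all probes. Without the library labelled KO 157, 0 of 66 passed and 4 had an unadjusted p under 0.05, against 11.9% of all probes. Without KO 192, and with the library labelled KO 157 kept, 1 of 66 keratin probes passed, that of *Krt5*. In that setting 578 of all 45281 probes passed.

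None of the simple keratins passed the threshold. Differences are given as KO minus WT on the log2 scale, as fitted by limma, with p-values adjusted over all probes. *Krt7*, a type II keratin typical of lung and duct epithelium, had log2 signals from 11.28 to 11.61 with a median of 11.47 in KO lungs and from 10.97 to 11.38 with a median of 11.24 in WT lungs. The ranges overlapped, with WT 142 lowest and KO 237 highest. The difference was 0.23 (95% interval 0.05 to 0.42, unadjusted p = 0.0176, adjusted p = 0.261), a 1.18-fold difference, and 0.23 (adjusted p = 0.341) once the library labelled KO 157 was dropped.

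*Krt8*, the type II keratin of all simple epithelia, ran from 12.24 to 12.93 (median 12.50) in KO lungs and from 11.95 to 12.88 (median 12.75) in WT lungs. WT 142 was the lowest lung of all and stood apart from the other WT lungs. The fitted difference was −0.12 (95% interval −0.41 to 0.17, adjusted p = 0.759), −0.09 (adjusted p = 0.863) once the library labelled KO 157 was dropped, and −0.26 without WT 142. Its second probe, ILMN_1229241, was detected in 0 lungs, and the probes of this gene thus disagree. *Krt18*, its type I partner, ran from 10.14 to 10.54 (median 10.22) in KO lungs and from 9.73 to 10.63 (median 10.25) in WT lungs, and WT 142 was again lowest. The KO range lay within the WT range, and the difference was 0.06 (95% interval −0.22 to 0.33, adjusted p = 0.902), 0.02 (adjusted p = 0.976) once the library labelled KO 157 was dropped, and −0.04 when WT 142 was left out. *Krt19*, the smallest keratin, ran from 10.07 to 10.74 (median 10.33) in KO lungs and from 10.07 to 10.37 (median 10.28) in WT lungs. KO 235 and KO 237 were highest, and the difference was 0.12 (95% interval −0.12 to 0.36, adjusted p = 0.716), or 0.10 (adjusted p = 0.804) without the library labelled KO 157.

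Of the basal keratins, *Krt14* ran from 8.24 to 9.19 (median 8.62) in KO lungs and from 8.36 to 9.65 (median 9.23) in WT lungs. The lowest KO value came from the library labelled KO 157, and the ranges overlapped. In limma, KO minus WT was −0.42 (unadjusted p = 0.0368, adjusted p = 0.334, SE 0.19) and −0.34 (adjusted p = 0.497) without that library. *Krt15*, a basal keratin that also marks hair follicle stem cells, ran from 9.03 to 10.73 (median 10.39) in KO lungs and from 8.86 to 10.49 (median 9.66) in WT lungs. It was lowest in WT 179 and KO 192 and highest in KO 235, KO 237 and KO 238. KO minus WT was 0.41 (adjusted p = 0.525, SE 0.26), and 0.49 (adjusted p = 0.488) without the library labelled KO 157.

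*Krt5* gave the lowest p of the family. Its log2 signals were 4.29, 2.67, 2.58, 4.79, 4.46 and 3.87 in KO 157, 186, 192, 235, 237 and 238, and 3.12, 1.98, 1.52, 2.76, 2.61 and 1.80 in WT 142, 177, 179, 182, 187 and 188. KO 157, KO 235, KO 237 and KO 238 lay above every WT lung and were the lungs in which it was detected, whereas KO 186 and KO 192 lay within the WT range. KO minus WT was 1.48 (unadjusted p = 0.00168, adjusted p = 0.113, SE 0.41). Since no WT lung was above background, the size of the difference is not measured. The mean of all KO lungs was 1.05-fold the lowest signal among detected probes. That mean includes the undetected lungs KO 186 and KO 192 and the library labelled KO 157. The ratio is therefore not a measured lower bound, and it was not computed without that library. The fitted value was 1.38 (adjusted p = 0.189) once the library labelled KO 157 was dropped and 1.72 (adjusted p = 0.0375) without KO 192, the single lung whose removal brought it past the threshold. Without KO 192, 578 of all 45281 probes passed, against 67 with all lungs. The fit without KO 192 still held the library labelled KO 157, and no fit left out both.

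*Krt13* and *Krt4* varied most. *Krt13*, the type I keratin of mucosal squamous epithelium, gave log2 signals of 9.31, 9.64, 7.72, 10.38, 10.50 and 10.30 in KO 157, 186, 192, 235, 237 and 238. It gave 10.24, 8.39, 3.41, 9.13, 9.28 and 8.68 in WT 142, 177, 179, 182, 187 and 188. WT 179 lay far below the other lungs, KO 192 was next, and KO 235, KO 237, KO 238 and WT 142 were highest. The difference was 1.45 (adjusted p = 0.435, SE 0.78), 1.52 (adjusted p = 0.486) once the library labelled KO 157 was dropped, and 0.50 without WT 179.

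*Krt4*, the type II partner of *Krt13*, gave 7.82, 8.21, 6.28, 8.79, 9.01 and 8.58 in the same KO lungs and 8.70, 6.59, 2.82, 7.30, 7.80 and 7.20 in the same WT lungs. The order of lungs was close to that of *Krt13*, with WT 179 lowest and KO 237 highest. The fitted difference was 1.38 (adjusted p = 0.387, SE 0.67), 1.44 (adjusted p = 0.439) once the library labelled KO 157 was dropped, and 0.60 without WT 179. The second *Krt13* probe, ILMN_2427582, was detected in 8 lungs, and its difference was 0.79 (adjusted p = 0.574). The numbers of KO 235, KO 237 and KO 238 lie apart from those of the other mice, and without these lungs the difference was 0.70 for *Krt13*, 0.70 for *Krt4* and 0.88 for *Krt5*.

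**Figure D2:**
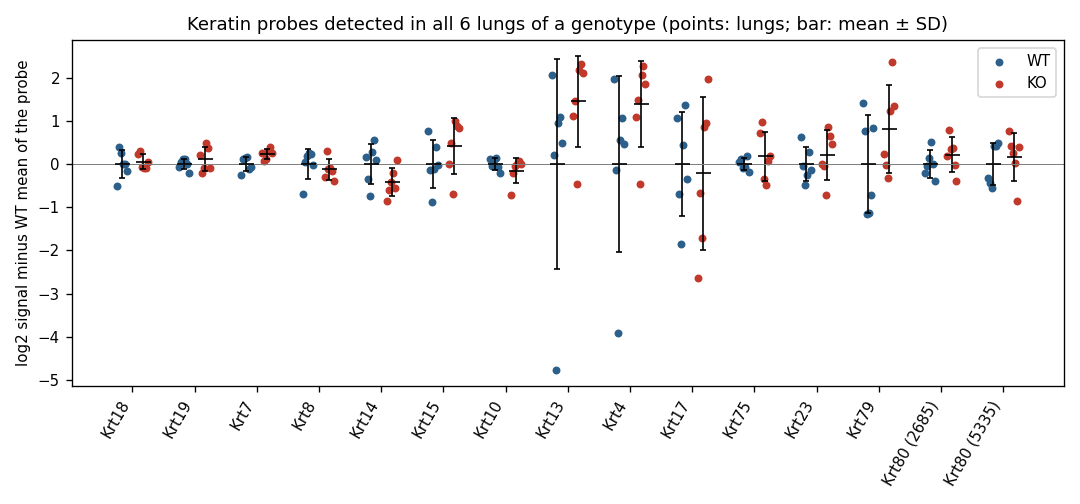
Log2 signal of each lung minus the WT mean of the probe (vertical axis) for the 15 keratin probes detected in all 6 lungs of a genotype. Points are lungs (KO red, WT blue), and black bars are mean ± SD. The 2 probes of Krt80 are told apart by the last digits of their number, and the lowest points of Krt13 and Krt4 are WT 179, at 3.41 and 2.82 on the log2 scale.

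Among the remaining keratins detected in a whole group, *Krt17* had the widest spread. It ran from 4.96 to 9.57 (median 7.69) in KO lungs and from 5.76 to 8.96 (median 7.65) in WT lungs. The lowest value came from the library labelled KO 157 and the highest from KO 238. In limma, KO minus WT was −0.21 (adjusted p = 0.926, SE 0.63) and 0.28 (adjusted p = 0.895) without that library. Its sign also turned when KO 192, WT 142 or WT 187 was left out. *Krt10* ran from 8.80 to 9.59 in KO and from 9.31 to 9.66 in WT lungs, with the library labelled KO 157 below all others. For this gene the difference was −0.15 (adjusted p = 0.646, SE 0.13) and −0.04 without that library.

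*Krt23*, a type I keratin, ran from 8.75 to 10.32 (median 9.69) in KO and from 8.97 to 10.08 (median 9.37) in WT lungs. KO 192 and WT 179 were lowest and KO 235 highest, and the difference was 0.21 (adjusted p = 0.736, SE 0.22). *Krt79*, a keratin of the upper hair follicle, was detected in 6 KO and 3 WT lungs. Its values ran from 3.81 to 6.49 in KO and from 2.96 to 5.54 in WT lungs, and the difference was 0.80 (adjusted p = 0.508, SE 0.49). Once the library labelled KO 157 was dropped, these differences were 0.25 for *Krt23* and 0.92 for *Krt79* (adjusted p = 0.722 and 0.499). *Krt75* and both probes of *Krt80* that were detected throughout gave differences of 0.18, 0.22 and 0.17, with adjusted p of 0.806, 0.704 and 0.854, and of 0.07, 0.22 and 0.05 (adjusted p = 0.942, 0.743 and 0.970) without the library labelled KO 157.

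*Krt35* and *Krt84*, which build the hair shaft and nail, had unadjusted p of 0.0319 and 0.0338 (adjusted p = 0.320 and 0.325). Neither was detected in any lung, and no fold is given. By class, 0 probes passed the threshold in any class, and the lowest adjusted p was 0.261 in the simple, 0.113 in the basal, 0.439 in the cornifying, 0.387 in the mucosal and 0.739 in the stress-induced class. It was 0.521 in the inner root sheath and companion layer class, 0.320 in the hair shaft class and 0.419 among the remaining genes. Probes not named above had adjusted p of at least 0.419.

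**Figure D3:**
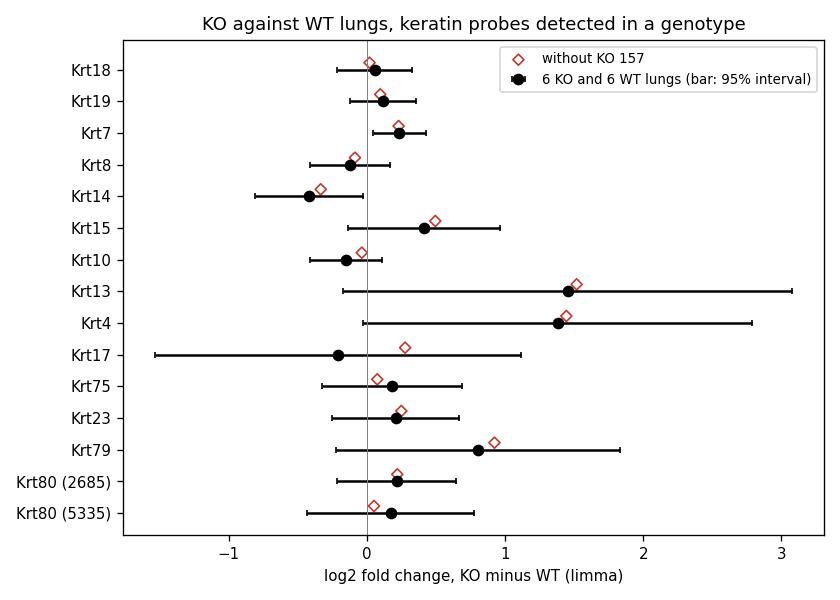
Log2 fold change, KO minus WT, from limma (horizontal axis) for the same 15 probes, with 95% intervals from 6 KO and 6 WT lungs. Open diamonds leave out the library labelled KO 157, which moves Krt17 from −0.21 to 0.28, and the widest intervals are those of Krt13, Krt4 and Krt17.

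The spread within a genotype was wide for *Krt13*, *Krt4* and *Krt17*, while that of *Krt18* and *Krt8* lay near the median of other probes. Among 18593 probes detected in at least 11 lungs, the median SD within a genotype was 0.26 on the log2 scale. The SD was 1.87 for *Krt13*, 1.61 for *Krt4* and 1.51 for *Krt17*, larger than that of 99.9%, 99.8% and 99.7% of these probes. It was 0.60 for *Krt15* (94.1%), 0.49 for *Krt23* (87.8%), 0.40 for *Krt14* (77.9%) and 0.23 for *Krt10* (39.5%). For *Krt7*, *Krt19*, *Krt18* and *Krt8* it was 0.14, 0.21, 0.26 and 0.30, larger than that of 12.5%, 34.6%, 47.9% and 59.5% of probes. The *Krt13* and *Krt4* probes were not detected in WT 179, so that their spread depends on the background correction. With no correction, *Krt13* gave 6.75 in WT 179 and 10.59 in KO 237, the lowest and highest lungs. *Krt4* then gave 6.68 and 9.26 in these lungs. The percentiles are a description, with no test.

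**Figure D4:**
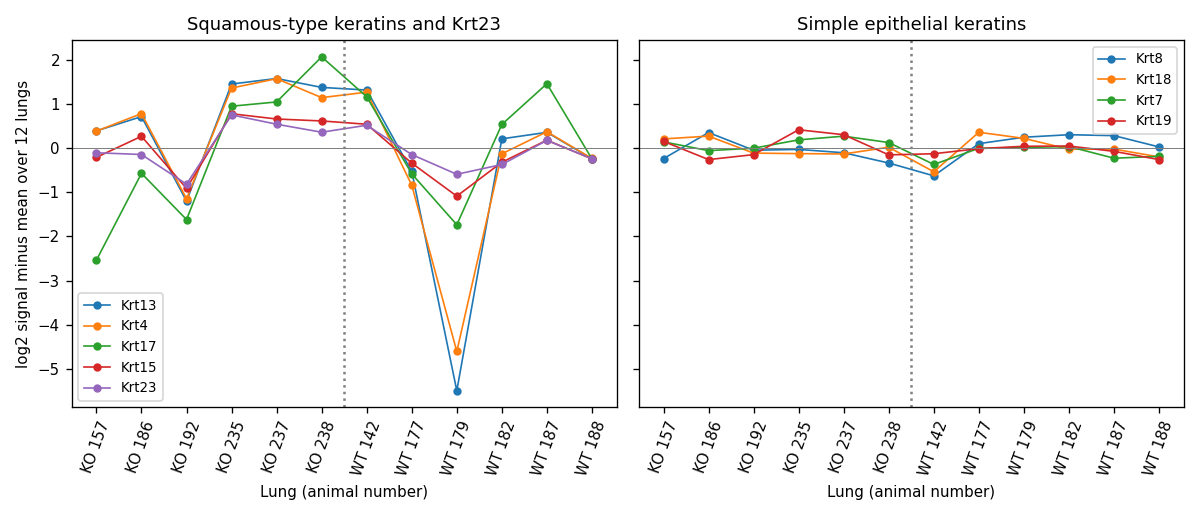
Log2 signal minus the mean over 12 lungs (vertical axis) in each lung (horizontal axis, KO left of the dotted line), for keratins of squamous type with Krt23 (left) and for simple keratins (right). Krt13 spans 7.09 and Krt8 spans 0.98 on the log2 scale, and WT 179 is lowest for Krt13, Krt4 and Krt15. Krt13 and Krt4 were not detected in WT 179, so that their depth there depends on the background correction.

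Filament partners were then compared over the lungs, in 3 pairs. *Krt4* and *Krt13* followed each other (Pearson r = 0.994, Spearman rho = 0.993, permutation p = 1e-05 for both, the smallest that 100000 resamples can give, adjusted p = 3e-05 over 3 pairs, two-sided). Without KO 192 and WT 179, the lungs farthest from the median, r was 0.984 (permutation p = 2e-05, n = 10). Within KO lungs r was 0.996 and within WT lungs 0.994, each with rho = 1 (exact permutation p = 0.00139, the smallest that 6 lungs allow). Both values of a lung come from the same array. No pair of genes that are not partners was compared, so that the relation is not shown to be particular to filament partners. *Cnfn*, which is not a keratin, was also lowest in WT 179 (3.48), with KO 192 next (6.46).

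*Krt8* and *Krt18* gave r = 0.59 and rho = 0.46 (permutation p = 0.0422 and 0.135, adjusted p = 0.0633 and 0.203 over 3 pairs). The relation rested more on WT 142 (r = 0.253 without it) than on KO 186 (r = 0.527 without it). Without both lungs r was 0.095 (permutation p = 0.791, n = 10). It was 0.335 within KO and 0.754 within WT lungs (exact permutation p = 0.562 and 0.0833, n = 6 each). *Krt5* and *Krt14* gave r = −0.12 and rho = −0.03 (permutation p = 0.691 and 0.937, adjusted p = 0.691 and 0.937). Without KO 235 and KO 237 r was −0.02 (permutation p = 0.962, n = 10). Within KO lungs r was 0.085 and within WT lungs 0.741 (exact permutation p = 0.854 and 0.108, n = 6 each). The *Krt5* probe was detected in 4 of 12 lungs and in no WT lung, so that most of its values lie at background.

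**Figure D5:**
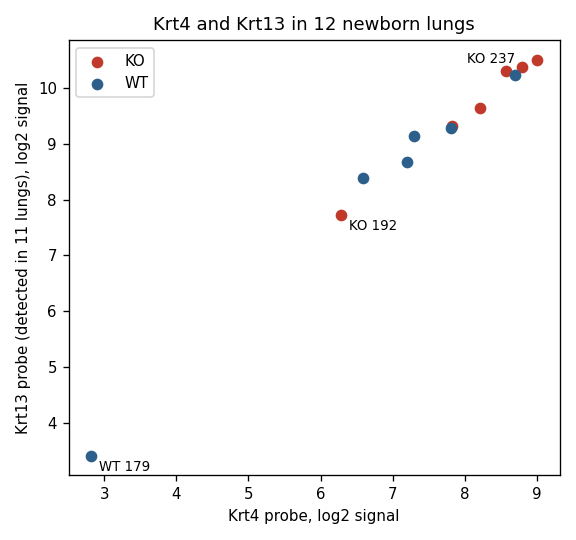
Log2 signal of the Krt13 probe detected in 11 lungs (vertical axis) against that of the Krt4 probe (horizontal axis), 1 point per lung (KO red, WT blue). Pearson r was 0.994 over 12 lungs and 0.984 without KO 192 and WT 179.

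Genes that go with keratins were measured as lists, with probes merged by median and p-values adjusted over all genes. Summed signals and values by lung are those of each gene's brightest probe, the one of highest mean signal. Without the library labelled KO 157, and likewise over all lungs with the brightest probe in place of the median, 0 genes of any list passed the threshold. Of 13 genes of squamous epithelium and airway basal cells, 0 passed the threshold, 10 had a positive and 3 a negative log2 fold change, and the median was 0.54 against −0.01 over all genes. Their 4 genes of lowest p were *Sbsn* (1.09, adjusted p = 0.0836), *Krtdap* (0.999, adjusted p = 0.319, or 0.599 by its brightest probe), *Ly6d* (0.98, adjusted p = 0.412) and *Calml3* (0.79, adjusted p = 0.533), by limma. The summed signal of the list ran from 1103 to 2513 in KO and from 993 to 1845 in WT lungs. It was 2513, 2278 and 2151 in KO 235, KO 238 and KO 237, the highest lungs for *Krt13*, and 993 in WT 179, the lowest. The largest part of this sum came from 1 gene, *Dmkn*, with a log2 signal of 10.74 in KO 235 and 9.53 in WT 179. *Trp63*, the transcription factor that defines basal cells, gave 2.05 in WT 179 on the log2 scale, and between 5.06 and 8.05 in the other lungs. Its difference was 1.23 (adjusted p = 0.403) by this probe, which was detected in 11 lungs, and 0.62 (adjusted p = 0.556) over its merged probes. *Dsg3* and *Serpinb5* were detected in no lung, and 4 of 13 genes in all 12. The part of these cells in the keratin values was not tested.

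Of 12 cornified envelope genes, which build the outer shell of skin cells, 0 passed the threshold, 8 were positive and 4 negative, and the median was 0.12. *Sprr2a1* gave a difference of 0.40 (adjusted p = 0.318), and *Tgm3* and *Flg2* were detected in no lung. *Cnfn* gave 3.48 in WT 179 and between 6.46 and 9.49 in the other lungs on the log2 scale, and the difference was 1.17 (adjusted p = 0.503) by this probe and 1.33 (adjusted p = 0.474) over its merged probes. The summed signal of this list ran from 1318 to 2062 in KO and from 1210 to 1670 in WT lungs.

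Of 11 simple epithelium genes, 0 passed the threshold, 6 were positive and 5 negative, and the median was 0.05. The tight junction genes *Cldn3*, *Cldn4* and *Cldn7* gave differences of 0.34, 0.32 and 0.34 (adjusted p = 0.182, 0.299 and 0.465), and *Epcam*, an epithelial surface protein, had 0.39 (adjusted p = 0.550). The summed signal ran from 15736 to 19010 in KO and from 16578 to 18423 in WT lungs. All 11 genes were detected in all 12 lungs.

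Of 15 genes of the junctions to which keratin filaments attach, 0 passed the threshold, 8 were positive and 7 negative, and the median was 0.03. *Evpl*, which encodes the linker envoplakin, gave a difference of 0.44 (adjusted p = 0.159), and *Itga6*, the hemidesmosome integrin, one of −0.67 (adjusted p = 0.173), which was −0.20 (adjusted p = 0.436) by its brightest probe. *Ppl* and *Pkp3* had values of 0.24 and 0.21 (adjusted p = 0.550 and 0.623), and that of *Ppl* was 0.13 by its brightest probe and 0.12 without the library labelled KO 157. Of 14 other intermediate filament genes, 0 passed, 2 were positive and 12 negative, and the median was −0.23. Those of lowest p were *Ina* (−1.06, adjusted p = 0.198, detected in 2 lungs), *Lmnb1* (−0.39, adjusted p = 0.263) and *Lmna* (−0.24, adjusted p = 0.480, or −0.52 by its brightest probe), and *Bfsp2*, the next, was detected in no lung.

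Of 8 regulators of hair keratins, 0 passed and 2 were positive, with a median of −0.13. *Gata3* gave a difference of −1.26 (adjusted p = 0.121), which was −0.98 without the library labelled KO 157. *Trps1* and *Lef1* had 0.31 and 0.28 (adjusted p = 0.412 and 0.656), while *Foxn1* was detected in no lung. By the brightest probe the sign of *Trps1* turned, to −0.09, and *Lef1* gave 0.49.

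Markers of other cells that the dissected lungs could hold were set beside the keratins, and 0 genes of these lists passed the threshold. The median log2 fold change was 0.03 over 8 alveolar type 1 genes, 0.06 over 8 alveolar type 2 genes, 0.14 over 5 club cell genes and 0.01 over 7 ciliated cell genes. The club cell gene *Scgb1a1*, a secreted protein of the airway lining, gave a difference of −0.41 (unadjusted p = 0.000547, adjusted p = 0.0836) against the positive median of its list. The median was 0.32 over 6 mesothelial genes, whose cells also use simple keratins, and the summed signal ran from 5229 to 9805 in KO and from 4594 to 7830 in WT lungs. Over 8 skeletal muscle genes, all positive, the median was 1.88, and 5 of 8 had an unadjusted p under 0.05. Their summed signal ran from 1062 to 19641 in KO and from 703 to 33409 in WT lungs, highest in WT 187 and KO 192, of which KO 192 was among the lowest for *Krt13*. It was 8276 or more in every KO lung except the library labelled KO 157 and 2687 or less in every WT lung except WT 187. Over 8 thymus genes the median was 0.12, and the summed signal was 1666 in KO 238, the highest lung for *Krt17*, and between 701 and 955 in the other lungs. The largest part of this sum came from 1 gene of even signal, *Cd8b1*, with log2 values from 9.34 to 9.74. Other genes varied more, and *Rag1* ran from 2.87 in WT 142 to 9.26 in KO 238, with 7.03 in WT 187 and 6.96 in KO 186. Over 4 thyroid genes the median was 0.07, and none of them was detected in all 12 lungs. Without the library labelled KO 157 the medians near 0 moved, to −0.02 for the junction and −0.01 for the alveolar type 1 genes, 0.07 for the cornified envelope and the club cell genes, and 0.32 for the thymus genes. Without it, other medians were 2.46 for skeletal muscle, 0.69 for squamous and basal, and 0.24 for mesothelial genes. They were −0.14 for the other intermediate filament genes and −0.09 for the hair keratin regulators. By the brightest probe, over all 12 lungs, the median of the other intermediate filament genes was −0.39, that of the alveolar type 2 genes −0.03 and that of the thyroid genes −0.0025. Their part in the keratin values was not tested.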

How the data were processed

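Total RNA of 12 newborn lungs was amplified, biotin-labelled and hybridized to Illumina MouseWG-6 v2.0 arrays. For each probe the authors deposited a mean bead intensity from GenomeStudio, with no background subtracted, and a detection p-value. A second deposited table, of background-subtracted intensity on a linear scale with values down to −17.5, was used only as an alternative, with values under 16 set to 16.

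The intensities were processed in R 4.3.3 by RMA background correction, which the methods name, followed by quantile normalization and log2. Every probe entered the fit. The platform annotation, which can be old, gave 1 gene for 34885 of 45281 probes, several for 18 and none for 10378. KO and WT lungs (n = 6 each) were compared in limma 3.58.1 with a trend of variance on mean, with Benjamini-Hochberg adjustment over all probes, or over 19057 genes with probes merged by median. SAM, named in the methods, was not run, and the methods' t-test was an alternative. The scripts were tested on simulated data. Summed signals of a list add linear values of each gene's brightest probe. Correlations used each gene's probe of highest mean signal, and 2 lungs farthest from the median were then left out.

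The keratins and gene lists were chosen with earlier results of these data known. Probes detected in all 6 lungs of a genotype, or with an unadjusted p under 0.05, are named with values. Of each other list, up to 4 genes of lowest p are named, and *Trp63*, *Cnfn* and *Dmkn* by lung were chosen after their values were seen. Promoter windows came from RefSeq. The number of arrays and the signal over background limit precision. Labels name no chip or litter, so no such term was fitted. The settings varied were the background correction, the normalization, the use of the authors' processed values, a detection filter, other tests, array weights and lungs left out. Plots used matplotlib 3.10.9 in Python 3.11.15.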

Additional observations from a re-analysis of the deposited data

Results flagged for a closer look

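Of 36 groups of 6 lungs examined over the named probes, 4 held a lung whose gap to its nearest neighbour was above Dixon's critical value at 95%, and chance flags about 1 group in 20. *Krt13* in WT 179 was 3.41 on the log2 scale, with the nearest WT lung at 8.39. *Krt4* in WT 179 was 2.82, with the nearest WT lung at 6.59, and neither of these probes was detected in that lung. *Krt8* in WT 142 was 11.95, with the nearest WT lung at 12.61. *Krt10* in the library labelled KO 157 was 8.80, with the nearest KO lung at 9.31. The causes were not tested.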

How the results depend on the processing

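The count of keratin probes past the threshold was 0 under every alternative run except without KO 192, when it was 1 (*Krt5*, log2 fold change 1.72, adjusted p = 0.0375 from limma), so that over lungs left out in turn it ran from 0 to 1. The count of merged genes likewise ran from 0 to 1 (*Krt5*, adjusted p = 0.0422). Each of these *Krt5* fits still held the library labelled KO 157. Of 393 values for 18 probes under 22 alternatives, 381 kept their sign and their side of the threshold, 2 were 0 (*Krt35* and *Krt84* with the authors' processed values), 9 changed sign and 1 passed the threshold. Without KO 235, 237 and 238 the log2 fold change was −0.0214 for *Krt19*, −0.0735 for *Krt15*, −0.247 for *Krt23* and −0.0338 for *Krt79*. In the same setting *Krt17* moved most, to −1.68, with the lowest adjusted p of the keratin probes there (0.210 in limma). With each lung left out in turn that of *Krt17* ran from −0.646 (without KO 238) to 0.276 (without KO 157), also positive at 0.0916 without KO 192, 0.00161 without WT 142 and 0.0619 without WT 187. That of *Krt18* ran from −0.0446 (without WT 142) to 0.134. The correlation of *Krt8* with *Krt18* was 0.766 with median scaling (adjusted p = 0.00586), and 0.708 without KO 157 and 0.645 without KO 238. It was 0.315 (adjusted permutation p = 0.479) with the median of a gene's probes, which takes in the undetected second *Krt8* probe. With each lung left out in turn r ran from 0.253 to 0.708 for this pair, from −0.346 to 0.0498 for *Krt5* with *Krt14*, positive only without KO 157, and from 0.987 to 0.996 for *Krt4* with *Krt13*. Over all probes, 67 passed the threshold in the reported setting, 0 with the authors' processed values, without a trend, in the t-test and without KO 238, 231 with array weights, 172 with the detection filter and 578 without KO 192, and of merged genes 38 passed, with counts from 0 to 223 over the alternatives. The causes were not tested. *Krt5* was removed by the detection filter and its fitted size depends on the background correction, at 0.29 with an offset of 50, 0.20 with no correction and 0.52 with neqc. No paired analysis was possible because the KO and WT mice share no numbers, and although the study speaks of pairs of mice, the labels do not say which belong together.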
